A study of Mus musculus with 12 samples.

Results

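Glycosaminoglycans are long sugar chains, most of them sulfated, that cells carry on proteoglycans or, in the case of unsulfated hyaluronan, release without a protein core. Measured here were the genes that build, sulfate and cut these chains in mouse melanoma tumours. The genes were taken by name: the exostosins, the N-deacetylase/N-sulfotransferases, the sulfotransferases of heparan and chondroitin sulfate and related glycans, the sulfatases Sulf1 and Sulf2, the chondroitin synthases and their partners, the xylosyl- and glucuronyltransferases of the chain start, the hyaluronan synthases, and Glce, Hpse and Ust. With 1 probe set per gene, the brightest, this gave 48 genes of the 909 that carried a symbol on the array. Hs3st1 was left out by the rule and is described with the other genes of the pathway, and Dse was not analysed here.

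The 12 samples were of tumours grown in syngeneic mice, profiled on a focused Affymetrix array with 1246 probe sets. Tumours of the line Tm1N3, which the labels name as expressing galectin-3, gave 3 samples from hosts lacking galectin-3 (Gal3 -/-, here knockout) and 3 from wild-type hosts. Tumours of Tm1G3, the line named as silenced for galectin-3, likewise gave 3 samples from knockout and 3 from wild-type hosts. The series asked how galectin-3, a lectin that binds galactose-containing glycans and is encoded by Lgals3, acts when made by the tumour cells or by the host. Per the series' design text they go back to a melanoma line that had silenced the gene and was then used with a galectin-3 plasmid, and each state is represented by 1 line, so anything else that sets these lines apart cannot be told apart from galectin-3. The names could be read the other way round, with Tm1G3 as the line given the plasmid, and the level of Lgals3 did not settle this. The labels are followed here, and differences are given between the lines by name, with no direction drawn for galectin-3. A knockout host still carried tumour cells with their own Lgals3. Age, sex, graft site and time of collection were not in the labels used here, which also do not say outright that replicates were separate animals, so p-values measure the spread between these samples.

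In heparan sulfate the chain is begun on a serine by xylosyltransferases, extended by the exostosins, and then sulfated in steps that start with the N-deacetylase/N-sulfotransferases and end with sulfation at the O positions. The pattern of sulfate groups decides which growth factors and chemokines the chain holds. Heparanase, the product of Hpse, cuts the finished chain outside the cell and in lysosomes, and it is known in melanoma for its part in invasion and in the release of growth factors from the matrix. Hyaluronan is made at the plasma membrane by the Has enzymes and carries no sulfate.

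Hpse had the largest difference between the tumour lines among the 48 genes, and its promoter is printed as the regulatory sequence in front of it. The window runs from 250 bases before the transcription start to 50 after it, at chr5:100719667-100719966 on the minus strand of GRCm38.p6, as given by RefSeq, 5′ to 3′, with the match to the GC box in capitals.
Hpse: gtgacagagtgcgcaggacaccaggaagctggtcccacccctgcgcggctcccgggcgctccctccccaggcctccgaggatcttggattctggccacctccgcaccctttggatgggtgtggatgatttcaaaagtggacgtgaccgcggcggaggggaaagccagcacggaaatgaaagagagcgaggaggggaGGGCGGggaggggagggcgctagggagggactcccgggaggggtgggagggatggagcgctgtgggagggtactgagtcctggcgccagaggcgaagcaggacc
The GC box, GGGCGG, begins at position -54 and was the only match to it in this window. Both strands were searched, and 35.7% of 32851 mouse promoters of the same length held it, against 27 of the 41 promoters that 35 of the 48 genes had in the table. GC made up 67% of the bases of the Hpse window, beside a median of 52.7% over all promoters and 65.3% over those of the 48 genes. The E-box CACGTG, the sequence CATGTG that is part of the M-box of pigment genes, TATAAA and the ETS core CCGGAA had no match on either strand. They were found in 7.15%, 14.2%, 13.6% and 14.9% of all promoters. These matches describe letters and were not tied to the array values.

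Hpse was lower in Tm1N3 tumours. Its log2 level was 10.40, 10.42 and 10.13 in Tm1N3 tumours of knockout hosts and 10.74, 10.56 and 10.53 in Tm1N3 tumours of wild-type hosts. In Tm1G3 tumours it was 11.14, 11.01 and 10.83 in knockout hosts and 10.54, 11.03 and 11.00 in wild-type hosts. The lines overlapped through 1 array, replicate 1 of Tm1G3 in wild-type hosts, which lay among the Tm1N3 values, while the 3 Tm1N3 arrays of knockout hosts were the lowest of all 12. Averaged over hosts the level was 10.46 ± 0.20 in Tm1N3 and 10.93 ± 0.21 in Tm1G3 tumours (SD, n = 6 each), a log2 difference of -0.46 ± 0.10 (SE), or 1.38-fold lower, with a 95% interval from -0.68 to -0.24. This passed the threshold of 0.05 (limma, Benjamini-Hochberg adjusted p = 0.0235 over 1246 probe sets). In bulk tumours fewer cells of a type and less RNA per cell cannot be told apart.

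The call on Hpse depended on single arrays and on how replicates were treated. Deviations of same-numbered arrays of the 2 hosts correlated within a line, and these arrays were taken as pairs on that ground, not by the labels. With these pairs as a random replicate block the adjusted p was 0.0756 (limma, Benjamini-Hochberg). With 1 array left out the difference stayed between -0.54 and -0.42, and it passed in 5 of 12 fits. It missed the threshold without Tm1N3 replicate 3 of knockout hosts (adjusted p = 0.0508), Tm1N3 replicates 2 (0.0643) or 3 (0.0583) of wild-type hosts, Tm1G3 replicates 1 (0.0527) or 2 (0.0717) of knockout hosts, and Tm1G3 replicates 2 (0.0609) or 3 (0.0677) of wild-type hosts. All of these are limma values adjusted by Benjamini-Hochberg.

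Has3, a hyaluronan synthase, was higher in Tm1N3 tumours by a small step. Its log2 level was 4.40, 4.43 and 4.42 in Tm1N3 tumours of knockout hosts and 4.69, 4.63 and 4.59 in those of wild-type hosts. In Tm1G3 tumours it was 4.28, 4.34 and 4.32 in knockout hosts and 4.17, 4.41 and 4.36 in wild-type hosts. The 3 Tm1N3 arrays of wild-type hosts were the highest of the 12, and the lines overlapped only where replicate 2 of Tm1G3 in wild-type hosts, at 4.41, lay above replicate 1 of Tm1N3 in knockout hosts, at 4.40. The level averaged 4.53 ± 0.13 in Tm1N3 and 4.31 ± 0.08 in Tm1G3 tumours (SD, n = 6 each). The log2 difference was 0.21 ± 0.05 (SE), or 1.16-fold higher, with a 95% interval from 0.11 to 0.32 (limma, Benjamini-Hochberg adjusted p = 0.0300). Has3 was a dim probe set, at the 28.7 percentile of mean level over all probe sets, just above the lowest 25%.

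The call on Has3 was lost in more of these fits. With the replicate block its adjusted p was 0.0710, and once arrays had been centred on their medians 0.0709 (limma, Benjamini-Hochberg). It passed in 2 of 12 fits with 1 array left out, those without Tm1G3 replicates 1 (0.0370) or 2 (0.0296) of wild-type hosts. Without the others it missed: Tm1N3 replicates 1 to 3 of knockout hosts (0.0512, 0.0743 and 0.0600) and of wild-type hosts (0.0811, 0.0670 and 0.0508), Tm1G3 replicates 1 to 3 of knockout hosts (0.0592, 0.0717 and 0.0698) and replicate 3 of wild-type hosts (0.0558). These too are limma values adjusted by Benjamini-Hochberg, and the difference itself stayed between 0.18 and 0.24.

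**Figure D1:**
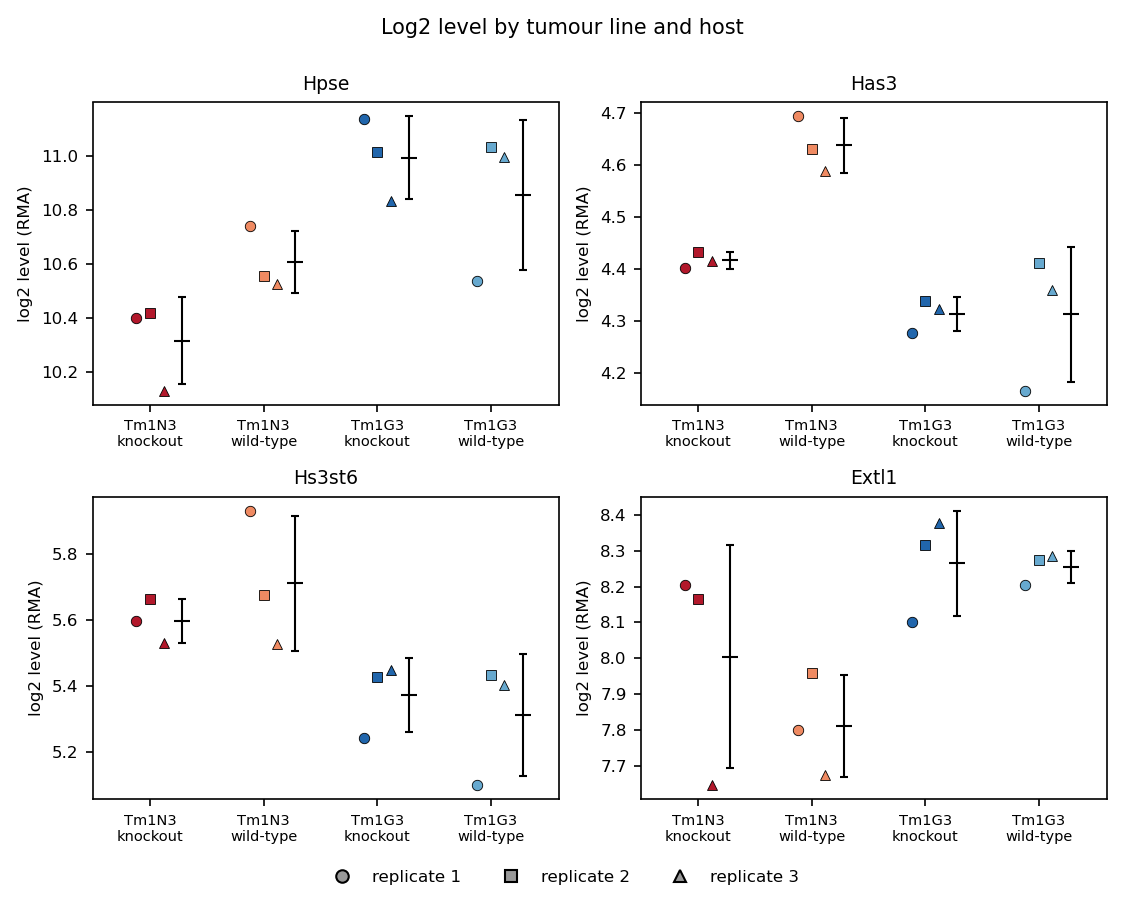
Log2 level (RMA) of Hpse, Has3, Hs3st6 and Extl1 on each of the 12 arrays, by tumour line and host, with replicates 1 to 3 as circle, square and triangle and the mean ± SD (n = 3) beside them. Hpse lies lowest in Tm1N3 tumours of knockout hosts, between 10.13 and 10.42, and Has3 highest in Tm1N3 tumours of wild-type hosts, between 4.59 and 4.69.

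Hpse and Has3 were the 2 genes of 48 past the threshold, 1 lower and 1 higher in Tm1N3 tumours. Over the whole array 4.25% of the 1246 probe sets passed, 1.28% higher and 2.97% lower, so the share among these 48 genes was near that of the array. An unadjusted p under 0.05 was reached by 6 of the 48, against 16.4% of all probe sets. The median log2 difference of the 48 was 0.012, beside 0.0027 over all probe sets, and 28 of the 48 had a positive sign. For 43 of the 48 genes the 95% interval lay wholly within ±0.5 on the log2 scale, that is, within 1.41-fold either way.

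**Figure D2:**
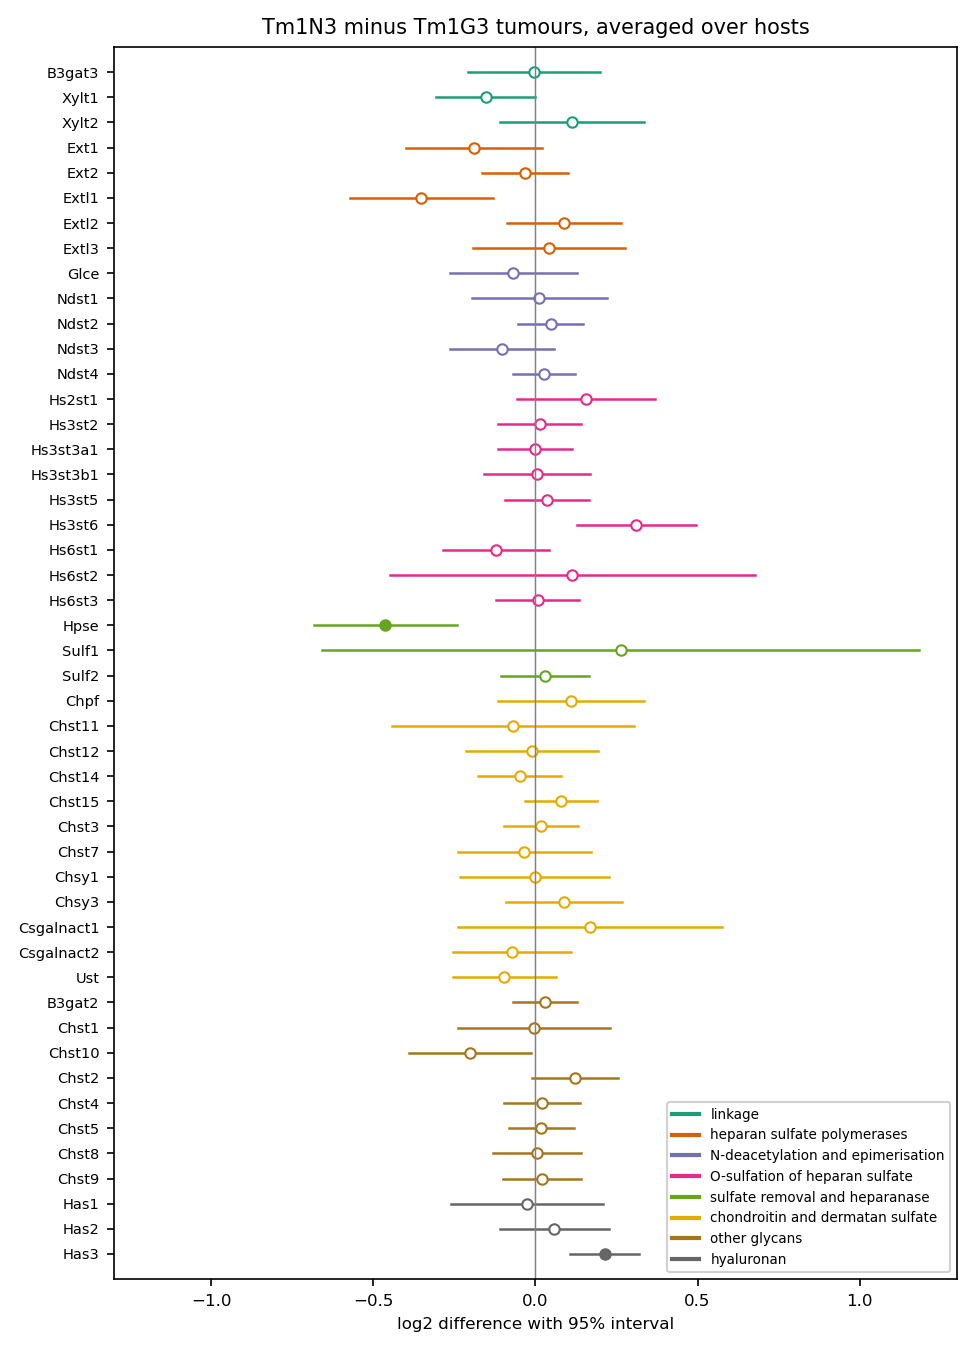
Log2 difference, Tm1N3 minus Tm1G3 tumours averaged over hosts, with its 95% interval from limma, for the 48 genes in order of role. Filled points passed the adjusted threshold, Hpse at -0.46 and Has3 at 0.21, and the widest interval is that of Sulf1, from -0.66 to 1.18.

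At the start of the chains, none of the 3 genes of the linkage region passed. Xylt1, a xylosyltransferase that sets the first sugar on the core protein, had a log2 level of 5.03 ± 0.13 in Tm1N3 and 5.18 ± 0.08 in Tm1G3 tumours (SD, n = 6 each), a difference of -0.15 ± 0.07 (SE). Xylt2, the other xylosyltransferase, differed by 0.11 ± 0.10. B3gat3, which adds the glucuronic acid that completes the linkage, differed by -0.0045 ± 0.092, so both xylosyltransferases were within 0.2 of equality with opposite signs.

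Of the 5 genes of heparan sulfate polymerisation none passed, and Extl1 came closest. Extl1, an exostosin-like glycosyltransferase, had log2 levels of 8.20, 8.16 and 7.65 in Tm1N3 tumours of knockout hosts and 7.80, 7.96 and 7.67 in those of wild-type hosts. In Tm1G3 tumours it had 8.10, 8.32 and 8.38 in knockout hosts and 8.20, 8.28 and 8.29 in wild-type hosts. The 2 lowest values belonged to the replicate 3 arrays of Tm1N3, and in knockout hosts the lines overlapped. The log2 difference was -0.35 ± 0.10 (SE; limma, Benjamini-Hochberg adjusted p = 0.0845), and it was -0.23 without those 2 arrays, a fit chosen after seeing the data. Ext1, the catalytic partner of Ext2 in the polymerase, differed by -0.19 ± 0.09 and Ext2 by -0.03 ± 0.06, while Extl2 (0.09 ± 0.08) and Extl3 (0.04 ± 0.11), both of them exostosin-like transferases, stood near 0.

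Of the 5 genes for N-deacetylation, N-sulfation and epimerisation none passed. The differences ran from -0.10 ± 0.07 (SE) for Ndst3 to 0.05 ± 0.05 for Ndst2, with Ndst4 at 0.03 ± 0.04 and Glce, the epimerase that turns glucuronic into iduronic acid, at -0.07 ± 0.09. Ndst4 was dim, with a mean level in the lowest 25% of probe sets.

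None of the 9 sulfotransferases that act on the O positions of heparan sulfate passed, although Hs3st6 was the 1 gene of the 48 whose 6 Tm1N3 arrays lay wholly apart from the 6 Tm1G3 arrays. That separation was seen in 3.29% of all probe sets. Hs3st6, of the same family of 3-O-sulfotransferases as Hs3st1, had log2 levels of 5.60, 5.66 and 5.53 in Tm1N3 tumours of knockout hosts and 5.93, 5.68 and 5.53 in those of wild-type hosts. In Tm1G3 tumours it had 5.24, 5.43 and 5.45 in knockout hosts and 5.10, 5.43 and 5.40 in wild-type hosts. The highest Tm1G3 array, at 5.45, lay just under the lowest Tm1N3 array, at 5.53. The log2 difference was 0.31 ± 0.08 (SE), with a 95% interval from 0.13 to 0.50, and it did not pass (limma, Benjamini-Hochberg adjusted p = 0.0687). It passed without Tm1N3 replicate 3 of wild-type hosts (adjusted p = 0.0468). Hs2st1, which sulfates the iduronic acid, differed by 0.16 ± 0.10, Hs6st1, a 6-O-sulfotransferase, by -0.12 ± 0.07 and Hs3st5, a dim probe set, by 0.04 ± 0.06.

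Of the sulfatases Sulf1 and Sulf2, which remove 6-O-sulfate from finished chains outside the cell, neither passed beside Hpse. Sulf2, a dim probe set, differed by 0.03 ± 0.06 (SE). Sulf1 differed by 0.26 ± 0.41 with an interval so wide that a change of more than 1.41-fold either way lies inside it.

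None of the 12 genes of chondroitin and dermatan sulfate passed, and their median difference was -0.0061. Chst15, which adds a further sulfate to sulfated chondroitin, differed by 0.08 ± 0.05 (SE), and Ust, which sulfates the uronic acid of dermatan sulfate, by -0.10 ± 0.07. A second probe set of Ust differed by -0.03 ± 0.07. The chondroitin synthase gene Chsy3 differed by 0.09 ± 0.08 and Chpf, the chondroitin polymerising factor, by 0.11 ± 0.10.

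Among 8 genes that act on other glycans none passed. Chst10, the sulfotransferase of the HNK-1 epitope of neural glycoproteins, had log2 levels of 7.03, 7.34 and 6.92 in Tm1N3 tumours of knockout hosts and 7.15, 7.14 and 6.91 in those of wild-type hosts. In Tm1G3 tumours it had 7.24, 7.30 and 7.24 in knockout hosts and 7.49, 7.27 and 7.15 in wild-type hosts. The lines overlapped, and the difference of -0.20 ± 0.09 (SE) did not pass (limma, Benjamini-Hochberg adjusted p = 0.263). Chst2, which sulfates N-acetylglucosamine on selectin ligands, differed by 0.12 ± 0.06. B3gat2, a glucuronyltransferase of the HNK-1 epitope read on a dim probe set (0.03 ± 0.04), Chst5 (0.02 ± 0.04) and Chst4 (0.02 ± 0.05) were close to 0. The other hyaluronan synthase genes stood near 0 as well, Has2, a dim probe set, at 0.06 ± 0.08 and Has1 at -0.03 ± 0.11. So of the 3 synthases Has3 alone passed, and the difference between its change and theirs was not tested.

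The same comparison within each host asked what the line changed where the host lacked or made galectin-3, and no gene of the 48 passed in either. In knockout hosts Hpse was at 10.32 ± 0.16 in Tm1N3 and 10.99 ± 0.15 in Tm1G3 tumours (SD, n = 3 each). The log2 difference was -0.68 ± 0.14 (SE; limma, Benjamini-Hochberg adjusted p = 0.0629). This passed after the values were quantile normalized again (adjusted p = 0.0235) and without Tm1G3 replicate 1 of wild-type hosts (0.0158), which lies outside this comparison and enters through the shared spread. Next came Hs3st6 (0.22 ± 0.12), Extl1 (-0.26 ± 0.14), Xylt1 (-0.17 ± 0.10) and Glce (-0.20 ± 0.12). Over the array 0.722% of probe sets passed in this comparison, and an unadjusted p under 0.05 was reached by 9.47% of them and by 1 of the 48 genes.

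In wild-type hosts Has3 had the smallest p, at 4.64 ± 0.05 in Tm1N3 and 4.31 ± 0.13 in Tm1G3 tumours (SD, n = 3 each), a log2 difference of 0.32 ± 0.07 (SE; limma, Benjamini-Hochberg adjusted p = 0.0561). Hs3st6 followed at 0.40 ± 0.12 (adjusted p = 0.139), then Extl1 at -0.44 ± 0.14 (0.168), Chst2 at 0.22 ± 0.09 (0.282) and Chst10 at -0.24 ± 0.12 (0.464). Extl1 passed without Tm1N3 replicate 3 of knockout hosts (adjusted p = 0.0449), again through the shared spread. Hpse differed by -0.25 ± 0.14 here (adjusted p = 0.537). Of all probe sets 0.883% passed, and an unadjusted p under 0.05 was reached by 13.1% of them and by 4 of the 48 genes.

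Whether the line difference itself depended on the host was tested by the interaction, and no gene passed it. The interaction, the line difference in knockout hosts minus that in wild-type hosts, was -0.43 ± 0.20 (SE) for Hpse, with a 95% interval from -0.87 to 0.01, and -0.22 ± 0.10 for Has3, with an interval from -0.43 to -0.01. Chst3, a chondroitin sulfotransferase, stood at -0.22 ± 0.10, Chst1, which sulfates galactose of keratan sulfate, at -0.41 ± 0.21 and Hs6st3, a dim gene of 6-O-sulfation, at 0.20 ± 0.12. The adjusted p was 0.996 for each of them (limma, Benjamini-Hochberg). None of the 1246 probe sets passed, 0%, and an unadjusted p under 0.05 was reached by 2.81% of them and by 1 of the 48 genes, Has3. For 30 of the 48 the interval lay within ±0.5, so for the other genes an interaction of 1.41-fold lies inside the interval. Of the 48 interactions 15 were positive, with a median of -0.062, beside -0.0060 over all probe sets.

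Loss of galectin-3 in the host was set against the wild-type host over both lines, and none of the 48 genes passed. None of all 1246 probe sets passed either (0%, limma), while an unadjusted p under 0.05 was reached by 6.26% of them and by 2 of the 48. Chsy3, a chondroitin synthase, had a log2 level of 9.83 in knockout and 10.02 in wild-type hosts, a difference of -0.20 ± 0.08 (SE; limma, Benjamini-Hochberg adjusted p = 0.749). Has3 was at 4.37 in knockout and 4.48 in wild-type hosts, a difference of -0.11 ± 0.05. Ust (0.15 ± 0.07), Chst2 (0.11 ± 0.06) and Csgalnact2 (-0.15 ± 0.08), which starts chondroitin chains, came next. A second probe set of Ust differed by 0.07 ± 0.07. The median over the 48 genes was 0.014, beside -0.011 over all probe sets, and 29 of the 48 were positive. For 45 of the 48 genes the 95% interval lay within ±0.5, that is, within 1.41-fold either way.

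Since same-numbered arrays of the hosts were taken as pairs within a line, the host differences were also read pair by pair. Csgalnact1, which starts chondroitin chains and was picked here after its values were seen, had the largest averaged host difference in size, -0.28 ± 0.18 (SE). Knockout minus wild-type it differed by -0.52, -0.12 and -0.21 in Tm1N3 and by -0.08, -0.17 and -0.55 in Tm1G3 tumours, so it was lower in knockout hosts in 6 of 6 pairs. B3gat2, also picked after its values were seen, was lower in knockout hosts in 6 of 6 pairs. Its probe set was dim, with a mean level in the lowest 25%, and its pair difference smallest in size was -0.0025. Ust was higher in knockout hosts in 6 of 6. These 3 of the 48 genes had the same sign in all pairs, against 5.86% of all probe sets. With the pairs as a random replicate block none of the 48 passed (limma, Benjamini-Hochberg adjusted p = 0.490 for Csgalnact1, 0.467 for B3gat2 and 0.403 for Ust, Chsy3 and Has3), and 46 of the 48 intervals lay within ±0.5.

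**Figure D3:**
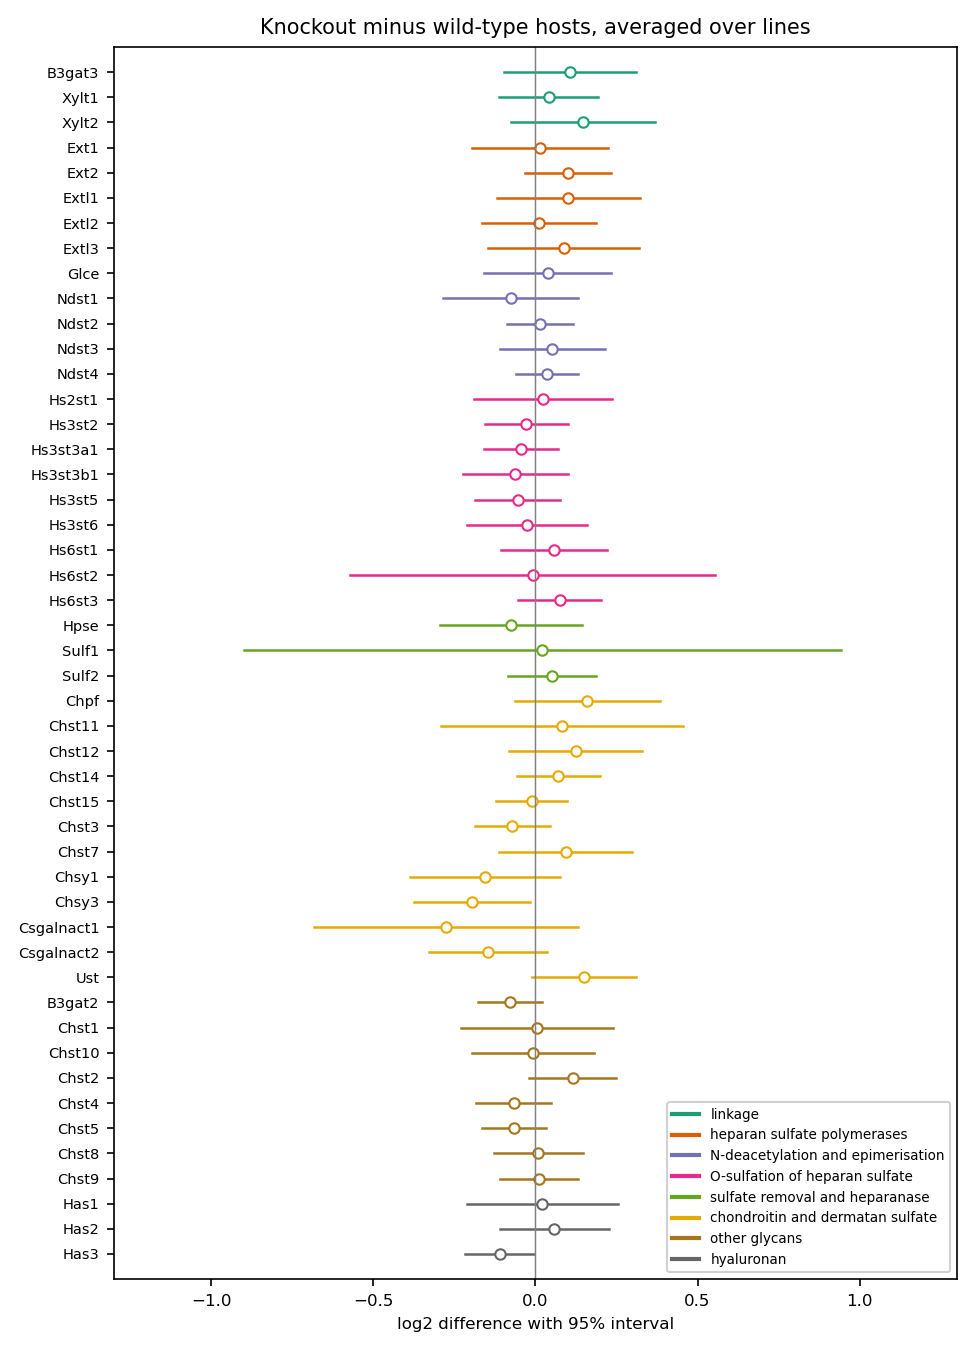
Log2 difference, knockout minus wild-type hosts averaged over the tumour lines, with its 95% interval from limma, for the 48 genes in order of role. No point is filled, since none passed the adjusted threshold, and the intervals of 45 genes lie within ±0.5, with that of Sulf1 the widest, from -0.90 to 0.94.

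In Tm1N3 tumours alone the host comparison gave no call among all probe sets (0%, limma), with an unadjusted p under 0.05 in 4.33% of them and in 3 of the 48 genes. These were Has3, at 4.42 ± 0.02 in knockout and 4.64 ± 0.05 in wild-type hosts (SD, n = 3 each), with a difference of -0.22 ± 0.07 (SE), Chsy3 (-0.29 ± 0.11) and Chst3 (-0.18 ± 0.07). Hs6st3 (0.18 ± 0.08) and Hpse (-0.29 ± 0.14) followed, each gene with an adjusted p of 1.00 (limma, Benjamini-Hochberg). The Has3 values of knockout hosts, 4.40 to 4.43, lay apart from those of wild-type hosts, 4.59 to 4.69. So did those of Hpse, 10.13 to 10.42 and 10.53 to 10.74, and those of Chsy3, Chst3 and Hs6st3 among others. How many of all probe sets had the hosts apart in this way was not counted, so nothing is drawn from it.

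In Tm1G3 tumours the host comparison likewise gave no call among all probe sets (0%, limma), with an unadjusted p under 0.05 in 6.18% of them and in 2 of the 48 genes. Chst2 had log2 levels of 5.48, 5.40 and 5.28 in knockout hosts, against 5.16, 5.15 and 5.20 in wild-type hosts, a difference of 0.22 ± 0.09 (SE; limma, Benjamini-Hochberg adjusted p = 0.752). Its wild-type Tm1G3 arrays were the lowest of all 12. Ext2 (0.19 ± 0.08), Xylt2 (0.26 ± 0.14), Chpf (0.25 ± 0.14) and Chst1 (0.21 ± 0.15) came next. Positive differences were found for 32 of the 48 genes here, with a median of 0.026, beside -0.011 over all probe sets. In Tm1N3 tumours 25 were positive, with a median of 0.0070, beside -0.016 over all probe sets. The share of all probe sets with a positive sign was not counted, so nothing is drawn from these counts.

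Across the 4 groups, 3 of the 48 genes had 1 group whose 3 arrays all lay outside the range of the other 9. They were Hpse, lowest in Tm1N3 tumours of knockout hosts, Has3, highest in those of wild-type hosts, and Chst2, lowest in Tm1G3 tumours of wild-type hosts. These 3 make 6.25% of the genes, and 6.26% of all probe sets had such a group. Tumour line accounted for 59.8% of the variance of Hpse over the 12 arrays, 58.1% of that of Hs3st6, 54.4% of that of Has3 and 52.4% of that of Extl1. These genes had the smallest p in the averaged line comparison, so their shares restate that result. The median gene of the 48 had 4.63% of its variance between lines, 7.00% between hosts and 70.9% within groups, beside 7.65%, 5.71% and 70.6% for the median probe set of the array.

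**Figure D4:**
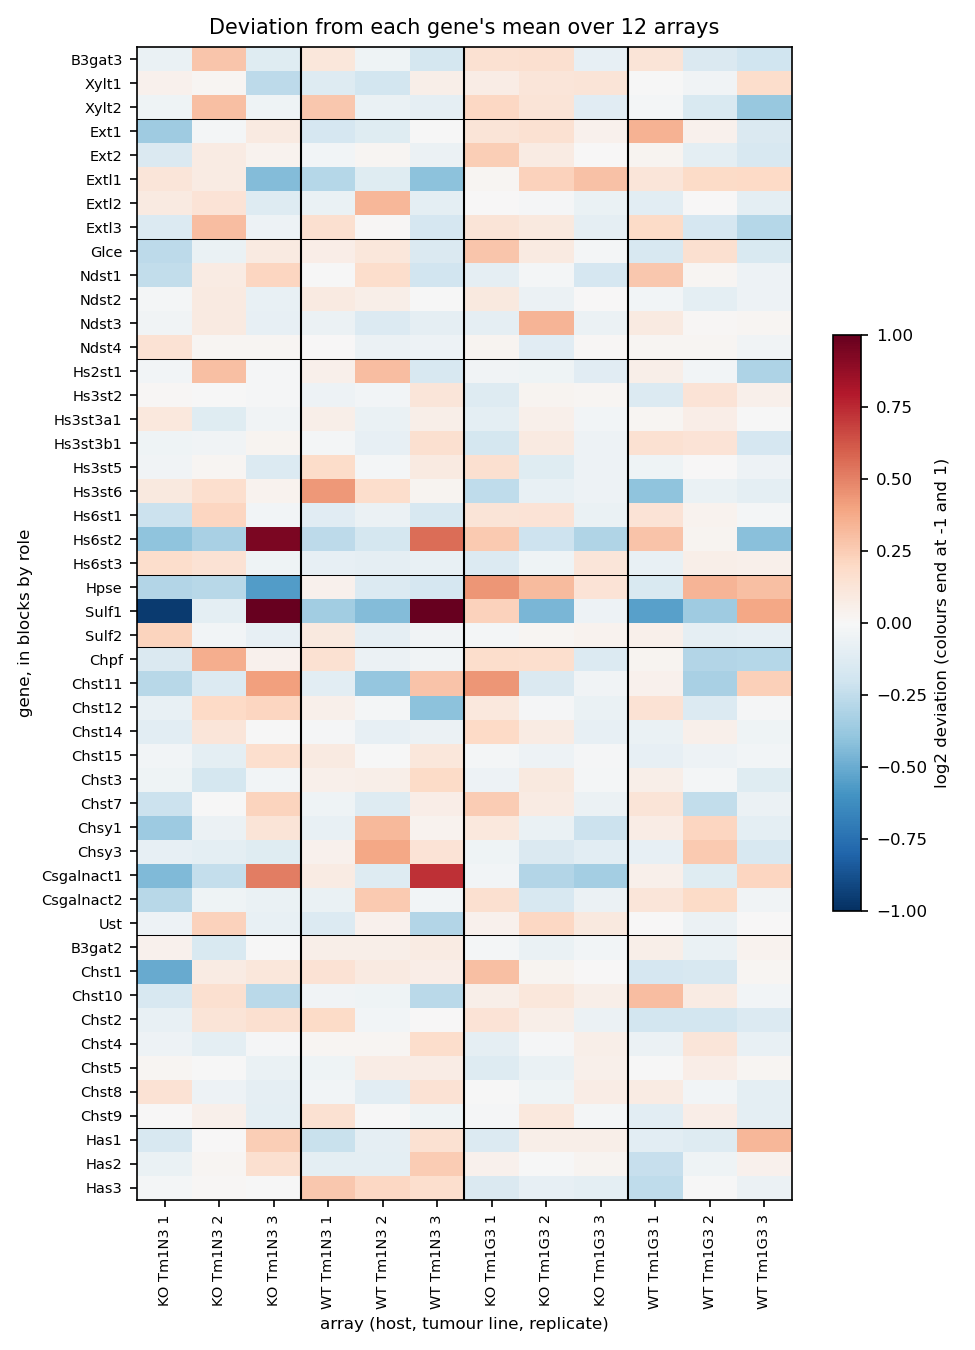
Deviation of each of the 48 genes (rows, in blocks by role) from its own mean over 12 arrays (columns, 3 per group), in log2 units from -1 in blue to 1 in red. The Hpse row is blue in the Tm1N3 arrays except replicate 1 of wild-type hosts (10.74, against a mean of 10.69) and red in the Tm1G3 arrays except replicate 1 of wild-type hosts (10.54), and Sulf1, Hs6st2 and Csgalnact1 are reddest in the replicate 3 arrays of both Tm1N3 groups.

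The genes of widest range, named next, varied mostly between replicates of a group, as the median probe set of the array did too. The range over 12 arrays had a median of 0.493 on the log2 scale and was largest for Sulf1 (2.36), followed by Hs6st2 (1.35), a 6-O-sulfotransferase, and Csgalnact1 (1.17), which starts chondroitin chains. These genes were picked after their values were seen. The pooled SD within groups ran from 0.0575 to 0.817, with a median of 0.140.

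Sulf1 stood at 4.68, 5.54 and 7.04 in Tm1N3 tumours of knockout hosts and 5.29, 5.21 and 6.87 in those of wild-type hosts. In Tm1G3 tumours it stood at 5.87, 5.18 and 5.59 in knockout hosts and 5.10, 5.29 and 6.02 in wild-type hosts. Replicate 3 of each Tm1N3 group was thus above all other arrays, by 0.847 on the log2 scale. Hs6st2 showed the same 2 arrays on top, at 5.29 in knockout and 4.91 in wild-type hosts, where its other 10 values lay between 3.93 and 4.63. So did Csgalnact1, at 7.27 and 7.48, with the others between 6.31 and 6.97. In all, 5 of the 48 genes (10.4%) had these 2 arrays as their highest, Has2 and Chst15 being the others, against 4.41% of all probe sets.

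The means of the fibroblast and matrix list and of the macrophage and monocyte list moved with these arrays. Gene by gene, both arrays were the highest for Lum, Bgn, Pdgfra and Dcn and for Clec10a, Mrc1 and Siglec1. The other measured genes of these lists did not have both as their highest. The mean log2 level of the 7 fibroblast and matrix genes measured of 13 was 6.46, 6.85 and 8.03 in Tm1N3 tumours of knockout hosts, 6.92, 6.95 and 7.81 in Tm1N3 tumours of wild-type hosts, 6.78 to 7.39 in Tm1G3 tumours of knockout hosts and 6.85 to 7.35 in Tm1G3 tumours of wild-type hosts. The 2 replicate 3 arrays of Tm1N3 were again the highest. They were also highest in the mean of the 6 measured macrophage and monocyte markers, at 7.06 in knockout and 6.90 in wild-type hosts, with the next array at 6.84, and in Lgals3. The part of these cell types in the levels of Sulf1, Hs6st2 and Csgalnact1 was not tested. Without both arrays, a fit chosen after seeing the data, Hpse differed between lines by -0.40 and Has3 by 0.23, with adjusted p of 0.0886 and 0.0751 (limma, Benjamini-Hochberg), so that neither passed.

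**Figure D5:**
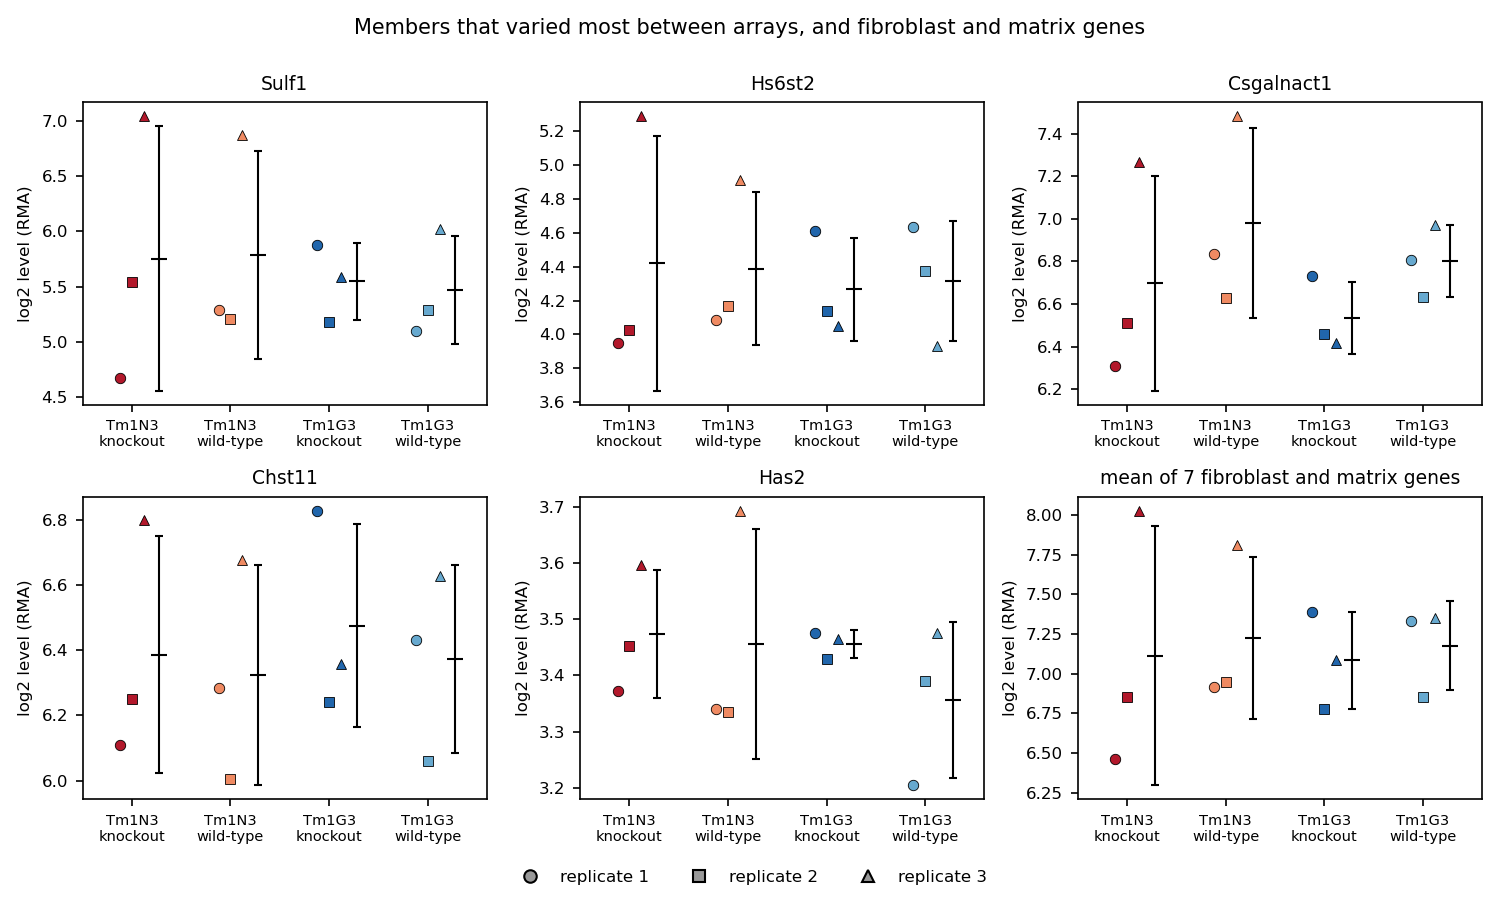
Log2 level (RMA) on each of the 12 arrays of Sulf1, Hs6st2, Csgalnact1, Chst11 and Has2, which were chosen after their values were seen, and the mean log2 level of 7 fibroblast and matrix genes, by tumour line and host with mean ± SD (n = 3). The triangles of both Tm1N3 groups stand highest in each panel except Chst11, where replicate 1 of Tm1G3 in knockout hosts is the highest.

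Levels of other cell types were read beside the line differences. The 6 measured macrophage and monocyte markers of 13 had a mean log2 level of 5.66 to 7.06 in Tm1N3 tumours of knockout hosts, 6.09 to 6.90 in Tm1N3 tumours of wild-type hosts, 6.30 to 6.59 in Tm1G3 tumours of knockout hosts and 6.14 to 6.84 in Tm1G3 tumours of wild-type hosts. Of these, 4 of 6 were lower in sign in Tm1N3 tumours, with a median of -0.21, and none passed. The 3 arrays lowest in Hpse, those of Tm1N3 in knockout hosts, held both ends of the macrophage range. Replicate 3, at 10.13 in Hpse, had the highest macrophage mean of all 12 arrays (7.06), and replicates 1 and 2, at 10.40 and 10.42 in Hpse, had the lowest (5.66 and 5.91). All 4 neutrophil markers measured of 9 were negative, with a median of -0.13, and none passed. Of 5 T and NK cell markers measured of 11, 4 were negative, with a median of -0.019. The chemokine gene Ccl5 alone passed, lower in Tm1N3 tumours (-0.65 ± 0.12, SE). Of 6 endothelial markers of 11, 3 were positive and 3 negative, with a median of 0.019. Only the adhesion gene Icam2 passed, and it was lower (-0.40 ± 0.08). Of the 7 fibroblast and matrix genes 2 were positive and 5 negative, with a median of -0.0024. Only the elastic fibre gene Fbln5 passed, and it was higher (0.76 ± 0.12), against the sign of most of its list. Of 9 melanocyte and melanoma markers only Kit and Mcam were measured, Kit lower (-0.99 ± 0.15) and Mcam higher (0.66 ± 0.15) in Tm1N3 tumours, so the array offers no pigment gene to check the label of the tumours, and no mast cell marker of 5 was measured. All calls are from limma with Benjamini-Hochberg adjustment, in the fit without a replicate block. Whether these marker calls hold with the block or with single arrays left out is not reported here. RMA values have no zero, so absence of a marker could not be read, and the part of these cell types in the levels of Hpse and Has3 was not tested.

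Of 57 other genes of the pathway 43 were measured, and in the averaged line comparison 2 were higher, 4 lower and 37 did not pass. Over the whole array 4.25% of probe sets passed, 1.28% higher and 2.97% lower. Hs3st1, a 3-O-sulfotransferase, was at 5.99 ± 0.76 and 6.66 ± 0.65 in Tm1N3 tumours of knockout and wild-type hosts and at 4.45 ± 0.09 and 4.42 ± 0.20 in Tm1G3 tumours of these hosts (SD, n = 3 each), a log2 difference of 1.89 ± 0.26 (SE). Its probe set shares sequence with other transcripts. Among 11 genes for breakdown in lysosomes and elsewhere, Idua, which removes iduronic acid, was higher (0.43 ± 0.09), and the sulfatase genes Arsb (-0.38 ± 0.08) and Galns (-0.33 ± 0.06) were lower. Among 21 core protein and hyaluronan receptor genes, syndecan gene Sdc2 (-0.52 ± 0.09) and glypican gene Gpc6 (-0.41 ± 0.09), both encoding carriers of heparan sulfate, were lower. Their adjusted p ran from 0.00320 for Hs3st1 to 0.0235 for Gpc6 (limma, Benjamini-Hochberg). After the values were quantile normalized again Gpc6 no longer passed (-0.36, limma, Benjamini-Hochberg adjusted p = 0.0532), and the other 5 did. Whether these calls hold with the replicate block or with single arrays left out is not reported here. In wild-type hosts Hs3st1 alone passed, and in knockout hosts and in the host comparisons and the interaction none of the 43 did. This list was drawn up with earlier results of these data known, Hs3st1 among them. Its share of calls can therefore not be weighed against that of the array.

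Lgals3, the gene behind both factors, was at 9.86 ± 0.62 and 9.97 ± 0.37 in Tm1N3 tumours of knockout and wild-type hosts, and at 9.31 ± 0.43 and 9.61 ± 0.34 in Tm1G3 tumours of these hosts (SD, n = 3 each). The line difference of 0.46 ± 0.23 (SE) did not pass (limma, Benjamini-Hochberg adjusted p = 0.376). The values thus do not settle which line expresses galectin-3. For the host, neither the labels nor the table say whether its probes fall inside the stretch deleted in knockout mice. In Tm1G3 tumours of knockout hosts, where by the labels neither tumour nor host should make galectin-3, the probe set still read 9.31, the lowest of the 4 group means. The 12 arrays correlated between 0.976 and 0.998 over all probe sets, their medians lay within 0.0945 of each other, and no pair was identical.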

How the data were processed

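Per the labels' protocols, total RNA was extracted with Trizol and made into biotinylated cRNA by an Affymetrix procedure. The authors deposited log2 values. The submitters' processing notes name RMA alone, which corrects background, makes array distributions equal and summarises probes. The values ran from 2.14 to 13.9 and were used as deposited. Scanner files were not used here, which leaves signal over background unexamined, and the number of arrays limits the precision.

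Gene symbols came from matching each probe set's RefSeq accession to RefSeq's mouse genes of GRCm38.p6. Of 1246 probe sets 963 had 1 symbol, and 283 were unnamed and stayed in the fit. The names beginning with Ext were read as including Extl1, Extl2 and Extl3. Of the 48 genes 9 have a probe set that shares sequence with other transcripts, 9 lay in the lowest 25% of mean level (up to 4.22), and 39 lay above it.

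All probe sets of the 12 arrays entered 1 limma fit (lmFit, eBayes; limma version 3.58.1, R version 4.3.3) with a mean for each of 4 groups, and with 8 residual and 2.39 prior degrees of freedom. It gave the line and host differences, averaged and within each level of the other factor, and the interaction. Benjamini-Hochberg adjustment ran over 1246 probe sets, with a threshold of 0.05. Of the comparisons, only the averaged line comparison was tested on simulated data. The simulated noise was independent between arrays, so that test does not bear on replicate pairs or on the other comparisons. No analysis filtered on level except as an alternative.

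Arrays of 1 replicate number were checked for shared deviations from their group means. Between hosts these correlated at 0.184 to 0.752 in Tm1N3 and 0.249 to 0.308 in Tm1G3 tumours, all above 0.1, and were taken as paired. Between lines the correlations ran from -0.660 to 0.272 in knockout and from 0.00808 to 0.544 in wild-type hosts and were not taken as paired. Between hosts the best match had the same number in 4 of 6 cases in Tm1N3 and 6 of 6 in Tm1G3 tumours. Between lines it did in 1 of 6 in knockout and 4 of 6 in wild-type hosts. The pairing thus rests on the cut at 0.1 in these same data. What a replicate number marks is not in the labels.

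The text names, per comparison, genes past the threshold and the 5 with the smallest p, and for each role at most 4 more by p in the averaged line comparison. It gives every array's value for those past the threshold and the 5 with the smallest p in that comparison. The members and lists were chosen with earlier results of these data known. The alternatives were a dim filter, other scalings, gene means, a variance trend, replicate blocks, leaving out shared sequence and leaving out each array.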

Additional observations from a re-analysis of the deposited data

How the results depend on the processing

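In the averaged line comparison the count of 2 genes of the 48 past the threshold (Hpse and Has3) held without dim probe sets, without probe sets of shared sequence, with the mean of a gene's probe sets, with a mean-variance trend and after quantile normalizing again. It became 1 (Hpse) with arrays centred on their medians and 1 (Hpse) with the number as a fixed replicate block. It was 0 with line and number as a random replicate block, whose fitted correlation was 0.273, and 0 without both Tm1N3 replicate 3 arrays, an alternative chosen after seeing the data. With each array left out in turn it ran from 0 to 2. The count in knockout hosts of 0 became 1 (Hpse) after quantile normalizing again and ran from 0 to 1 with single arrays left out, and in wild-type hosts it also ran from 0 to 1. In the host comparisons and the interaction it was 0 in each setting run, the replicate blocks included, so apart from the averaged line comparison no replicate block changed a call among the 48 genes. The causes were not tested. Quantile normalizing again gave 29 probe sets higher and 28 lower in the averaged line comparison over the whole array, where the deposited values gave 16 and 37. In wild-type hosts it gave 10 and 5, and centring arrays on their medians 4 and 2, where the deposited values gave 5 and 6. Over 35 differences of named genes and 749 values under alternatives, 722 kept their sign and side of the threshold, 23 kept their sign and no longer passed, 4 kept their sign and newly passed, and 0 changed sign. Signal over background is not known here, which limits what can be said of dim genes such as Has3.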
